A study of Mus musculus with 16 samples.

Results

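Long noncoding RNAs that stay in the nucleus or come from imprinted domains were read on whole-cochlea arrays through 6 genes, Malat1, Neat1, Meg3, Rian, Mirg and H19. All probes that carry a single gene symbol of the array annotation and that name a member were kept, which gave 26 of the 45101 probes on the array: 7 for Malat1, 2 for Neat1, 11 for Meg3, 4 for Rian and 2 for Mirg. The probe that reads H19 also carries the symbol Mir675, so 0 probes met the rule for H19 and 5 of the 6 genes have values. Malat1 was selected on its M+V and control signals, because several of its probes were lower after treatment. So M+V against control is described below for every gene without a test, and so is Malat1 in both comparisons with 4 weeks, which share the M+V or the control arrays. Of the 26 probes, 22 reached the level set for testing (the array's median signal in every array of at least 1 group): all 7 of Malat1, 1 of Neat1, all 11 of Meg3, 3 of Rian and 0 of Mirg.

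The animals were male DBA/2J mice, an inbred strain that loses hearing progressively. The M+V group had 6 mice of 12 weeks of age that received L-methionine (MET, 500 mg/kg) and valproic acid (VPA, 300 mg/kg) together under the skin every day for 8 weeks. The control group had 5 mice of 12 weeks that received the vehicle alone, 0.1 M sodium bicarbonate, for the same 8 weeks, and the 4 weeks group had 5 untreated mice. Each array held RNA of 1 left cochlea, values are log2 signals, and replicate numbers are those of the labels. The 4 weeks mice differ from control mice both in age and in having had no injections, and these cannot be told apart.

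MET is a precursor of the cell's methyl donor, and VPA inhibits histone deacetylases. Malat1 is a very abundant RNA that gathers in nuclear speckles, the bodies rich in splicing factors, and Neat1, its neighbour on chromosome 19, is the scaffold of another nuclear body, the paraspeckle. Meg3, Rian and Mirg lie in line on chromosome 12 in the Dlk1-Dio3 imprinted domain, are transcribed from the chromosome inherited from the mother, and carry many microRNAs and small nucleolar RNAs within their introns and exons. In the adult mouse these 3 RNAs are best known from neurons. H19 is likewise maternally expressed, beside Igf2 on chromosome 7, and is the precursor of miR-675.

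The start of Meg3 is shown because the domain's noncoding RNAs are thought to be read from there in a single direction, and the start of Malat1 because its probes showed the largest differences below. Both are RefSeq promoters of assembly GRCm38.p6, with 250 bases before and 50 bases after the transcript's start, written 5′ to 3′ on the gene's strand. For Meg3 2 promoters are listed, and only the one with the lower coordinate is shown and counted here. Malat1 has 1. Capitals mark matches, on either strand, to 4 motifs searched for. The first was TGACGTCA, the palindromic cAMP response element. The second was TATAAA, the core of the TATA box. The third was CCAAT, the binding motif of the factor NF-Y. The last was GGGCGG, the GC box.
Meg3, chr12:109540746-109541045, plus strand: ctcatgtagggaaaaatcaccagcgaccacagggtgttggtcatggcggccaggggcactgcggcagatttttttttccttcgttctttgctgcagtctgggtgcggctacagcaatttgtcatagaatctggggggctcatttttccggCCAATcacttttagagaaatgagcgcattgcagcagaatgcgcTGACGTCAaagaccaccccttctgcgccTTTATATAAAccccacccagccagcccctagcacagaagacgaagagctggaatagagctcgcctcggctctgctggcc
Malat1, chr19:5802623-5802922, minus strand: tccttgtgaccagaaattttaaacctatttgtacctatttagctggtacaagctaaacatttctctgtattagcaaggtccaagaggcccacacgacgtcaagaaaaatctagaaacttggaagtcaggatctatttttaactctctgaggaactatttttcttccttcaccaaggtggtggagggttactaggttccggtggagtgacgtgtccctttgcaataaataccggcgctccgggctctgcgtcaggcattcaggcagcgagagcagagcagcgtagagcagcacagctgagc
The Meg3 window held 1 match to TGACGTCA, which starts at −57 from the transcript start, 1 to CCAAT and 2 overlapping matches to TATAAA on opposite strands, while the Malat1 window held 0 matches to any of the 4. Of the 32817 promoters in the same table, 1.79% held TGACGTCA, 13.6% held TATAAA, 37.4% held CCAAT and 35.6% held GGGCGG. The Meg3 window had 13 CpG dinucleotides and the Malat1 window 10, against a median of 7 over all promoters, and 37.9% and 43.4% of promoters held at least as many. DNA methylation was not measured in these cochleae.

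Mature microRNAs are shown to make plain what else the domain's RNAs carry, since microRNA levels were not measured. RefSeq places 3 mature microRNAs within the span of Meg3 on its strand, 6 within Rian and 19 within Mirg, and 0 within Malat1 or Neat1. The 19 in Mirg have 18 different seeds (bases 2 to 8, in capitals), and the only pair that shares a seed is printed last.
miR-770-5p, within Meg3: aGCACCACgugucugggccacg
miR-370-3p, within Rian: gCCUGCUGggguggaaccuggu
miR-410-3p, within Mirg: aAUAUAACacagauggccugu
miR-453, within Mirg: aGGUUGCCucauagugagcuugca
miR-496a-5p, within Mirg: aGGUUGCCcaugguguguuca

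The tissue of the samples and the arrays that stand apart bear on all that follows. Coch and Otos, genes of the fibrocytes of the spiral ligament, had group means between 14.51 and 15.14, and of the 5 hair cell markers Myo7a and Otof reached the level for testing while Slc26a5, Pou4f3 and Ocm did not. Neuron, oligodendrocyte and astrocyte markers were readily measured, so the dissected pieces held nerve and glia. The signal of bioB, a bacterial RNA added to every hybridization, fell into 2 sets of arrays that the labels do not mention: 9.13 to 9.85 in M+V 1 and 2, control 1 and all 5 arrays of 4 weeks, and 6.22 to 6.64 in the other 4 M+V and 4 control arrays. The mean level of 11 oligodendrocyte and astrocyte genes, relative to all arrays, was −0.48, −0.75 and −0.75 in M+V 1, 2 and 5, the lowest values of all, and lay between −0.37 and 0.45 in control arrays and between 0.08 and 0.37 in arrays of 4 weeks. M+V 1 also had almost no red cell signal (summed signal of Alas2 and Slc4a1 53.4), against 10700 to 17120 in control arrays and 9249 to 15050 in arrays of 4 weeks. In whole cochleae, fewer cells of a type and less RNA per cell cannot be told apart.

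Malat1 was lower in M+V-treated than in control cochleae by 4 of its 7 probes, with differences of −0.997 to −0.59 on the log2 scale, and nearly level by the other 3. Probe 1418189_s_at had a lowest, median and highest log2 signal of 12.72, 13.42 and 13.53 in the 6 M+V arrays, against 14.04, 14.43, 14.31, 13.93 and 13.82 in control 1 to 5 and 14.57, 14.21, 13.48, 14.67 and 14.46 in 4 weeks 1 to 5. All 6 M+V arrays lay below all 5 control arrays, and the group means differed by −0.86 (a 1.82-fold lower signal). Probe 1452378_at read 8.38, 8.96 and 9.40 (lowest, median and highest) in M+V arrays, against 9.43, 9.79, 9.53, 9.56 and 9.42 in control arrays and 10.57, 9.96, 9.03, 10.16 and 9.88 in arrays of 4 weeks. It was the other probe whose M+V and control arrays did not overlap, with a difference of −0.59, just past the 1.5-fold that the methods used.

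The remaining pair of lower probes differed as much, with some overlap. Probe 1438403_s_at read 9.68, 10.61 and 11.32 in M+V arrays, against 11.68, 12.15, 11.54, 11.10 and 11.48 in control arrays and 13.11, 12.07, 10.51, 12.65 and 12.18 in arrays of 4 weeks. This was the largest difference of all 26 probes (−0.997, or 2.00-fold), and 4 of 6 M+V arrays lay below the lowest control array. Probe 1418188_a_at read 11.45, 12.16 and 12.88 in M+V arrays, against 13.12, 13.12, 12.89, 12.52 and 12.61 in control arrays and 13.69, 13.29, 12.30, 13.68 and 13.34 in arrays of 4 weeks. Its difference was −0.72, and 5 of 6 M+V arrays lay below all control arrays.

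The other 3 Malat1 probes gave small differences between M+V and control of −0.16 (1427285_s_at), −0.15 (1436202_at) and 0.09 (1429060_at), and their groups overlapped. Over the 7 probes the median was −0.59, against 0.009 over all 21391 tested probes. The 4 probes past 1.5-fold stand beside 1.87% of all tested probes that were lower past that fold, and the 2 without overlap beside 0.575% of probes for which every M+V array was lower than every control array. These values chose Malat1, so they describe the choice. By the array maker's naming, probes ending in _s_at can match transcripts of more than 1 gene, and those ending in _a_at match several transcripts of 1 gene. The 7 probes come from 5 target sequences of the array design, of which 2 have 2 probes each, so the probes are not independent readings.

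**Figure D1:**
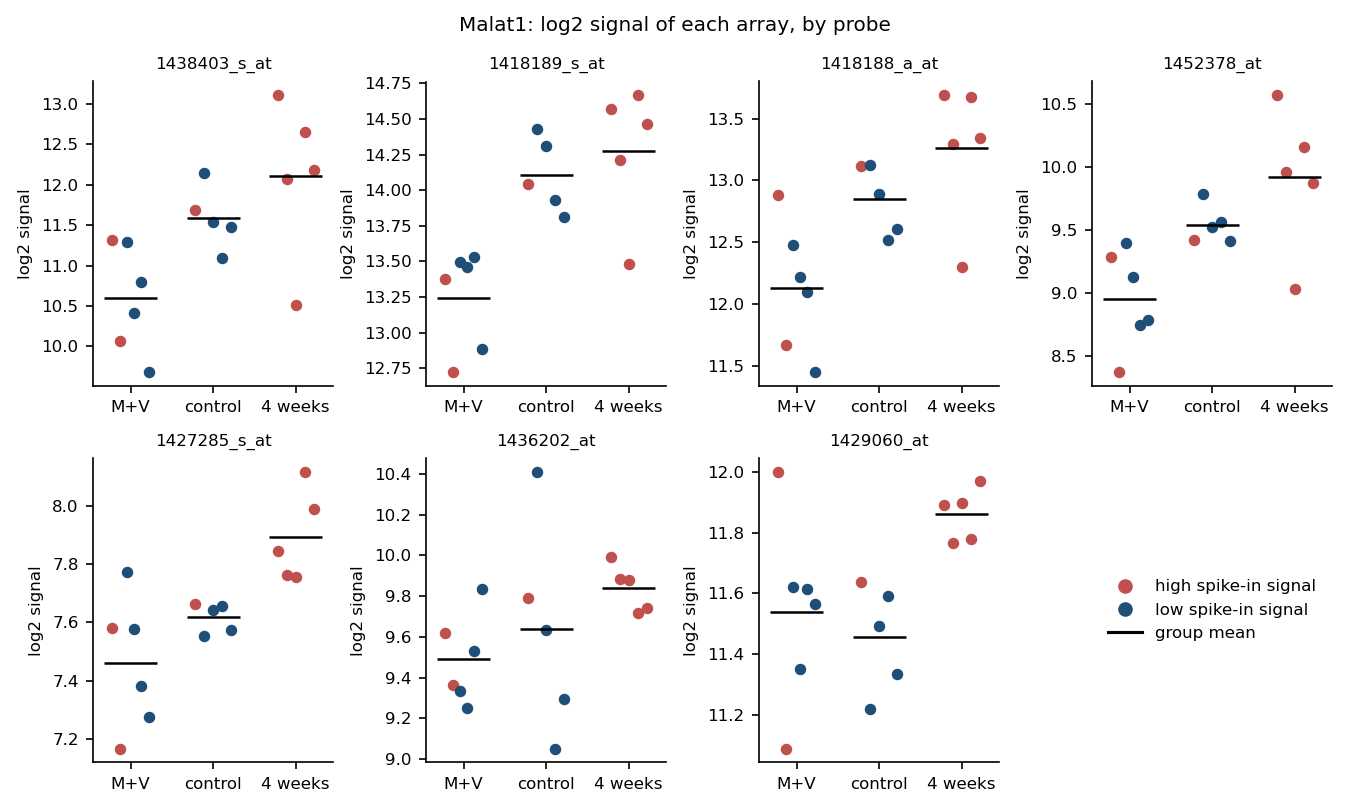
Log2 signal of the 7 Malat1 probes in each array (points) with the group mean (line), for M+V (6 arrays), control (5) and 4 weeks (5), each panel with its own axis. Red points are arrays with a high bioB spike-in signal and blue points those with a low one. In the upper row the M+V points sit lowest, without overlap with control for 1418189_s_at and 1452378_at, and 4 weeks 3 lies below the other arrays of its group.

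The values that chose Malat1 can also be read within each spike-in set, as a description only. Within the 4 M+V and 4 control arrays with a low bioB signal, the same 4 probes differed by −1.02, −0.78, −0.72 and −0.56 (1438403_s_at, 1418189_s_at, 1418188_a_at and 1452378_at). Within the 2 M+V arrays and 1 control array with a high signal they differed by −0.99, −0.99, −0.84 and −0.59. With the oligodendrocyte and astrocyte level as a covariate they differed by −0.98, −0.85, −0.72 and −0.46. These are subsets and adjustments of the choosing values, and the part of the spike-in set or of the tissue in them was not tested.

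Against cochleae of 4 weeks, all 7 Malat1 probes were lower in M+V arrays, with a median difference of −0.96 and a range of −1.51 to −0.32. Of the 7, 4 were past 1.5-fold, beside 3.23% of all tested probes, and 0 had groups without overlap (2.76% of all tested probes had every M+V array lower). For the 4 probes past that fold it was 4 weeks 3 that read low, and for the other 3 it was M+V 1, 3 or 6 that read high. Within the arrays of high spike-in signal (2 M+V and 5 of 4 weeks) the 7 differences ran from −1.41 to −0.32. No test is given, since the M+V arrays chose this gene.

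Control cochleae also read below those of 4 weeks by all 7 Malat1 probes, with differences of −0.51 to −0.17 and a median of −0.38. No p is given, since this comparison shares the control arrays with the one that chose the gene. Probe 1429060_at read 11.64, 11.22, 11.49, 11.59 and 11.34 in control arrays, against 11.89, 11.77, 11.90, 11.78 and 11.97 in arrays of 4 weeks, with no overlap. Probe 1427285_s_at had 7.66, 7.55, 7.64, 7.66 and 7.57 in control arrays, against 7.84, 7.76, 7.76, 8.12 and 7.99 in arrays of 4 weeks, again without overlap. Their differences were −0.41 and −0.28, and every control array lay below every array of 4 weeks in 3.65% of all tested probes. Both are among the 3 probes that were nearly level between M+V and control. With the spike-in set as a block, all 7 probes stayed below 0, with differences of −0.51 to −0.15, and within the arrays of high signal, which hold only control 1, they were −0.49 to −0.05.

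**Figure D2:**
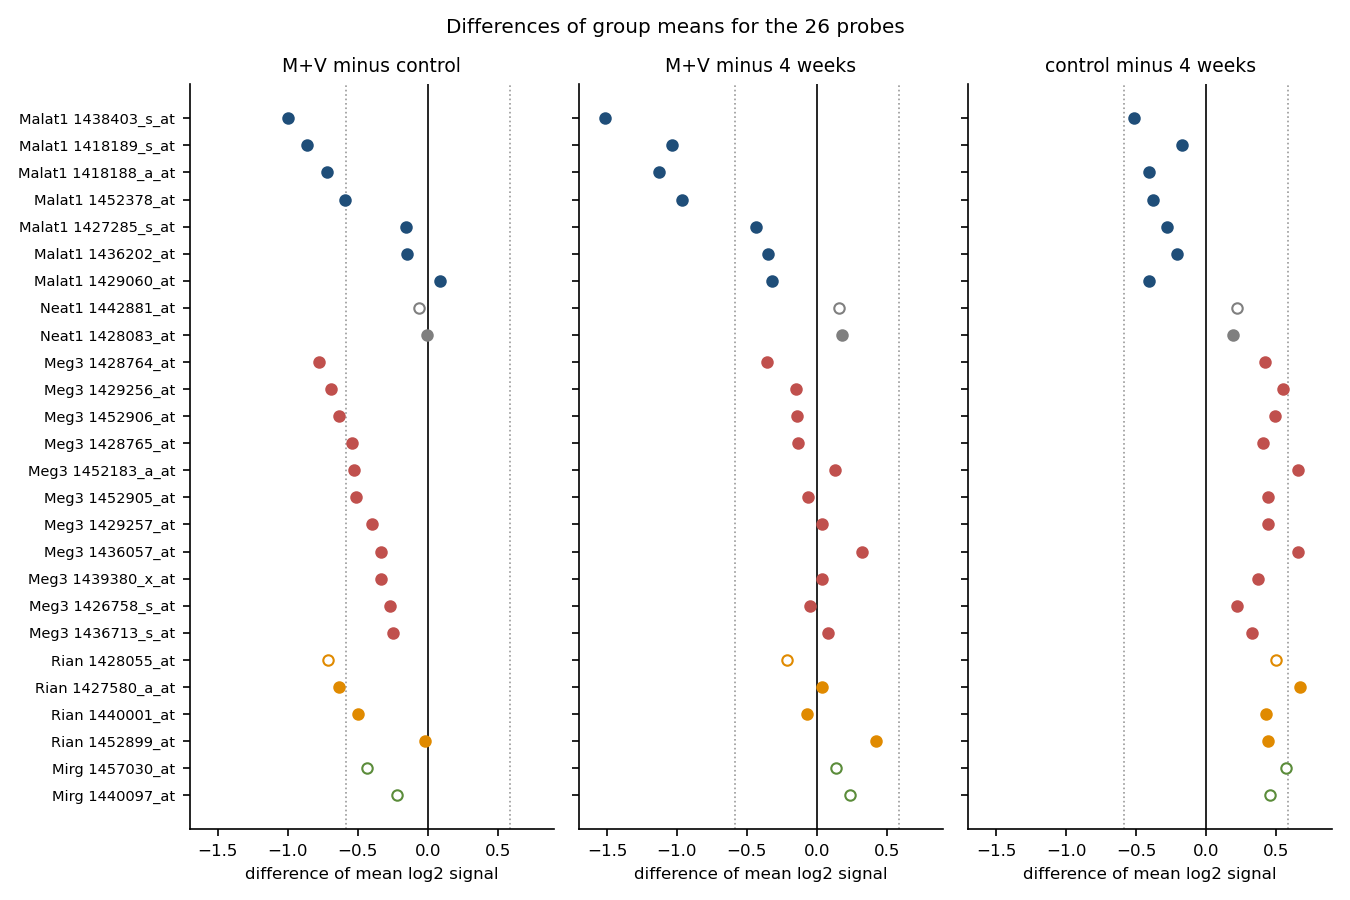
Difference of mean log2 signal for each of the 26 probes in M+V minus control, M+V minus 4 weeks and control minus 4 weeks, with filled points for tested probes and open points for the 4 that were not. Dotted lines mark 1.5-fold. Malat1 lies below 0 in all but 1 of its 21 points, whereas Meg3, Rian and Mirg lie below 0 in the left panel, around 0 in the middle and above 0 on the right.

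Neat1, the paraspeckle scaffold, read nearly the same in M+V and control arrays by its tested probe. Probe 1428083_at read 11.16, 11.49 and 11.59 (lowest, median and highest) in M+V arrays, against 11.52, 11.66, 11.33, 11.31 and 11.40 in control arrays and 11.19, 11.37, 11.34, 11.11 and 11.26 in arrays of 4 weeks. M+V and control means differed by −0.007, within an SD of 0.16 for M+V and 0.15 for control. The difference from 4 weeks was 0.18 ± 0.09 for M+V and 0.19 ± 0.10 for control (SE), with limma's adjusted p of 0.269 and 0.413. The dimmer probe, 1442881_at, was not tested and ranged over 6.31 to 7.10 in M+V arrays, 6.11 to 7.20 in control arrays and 6.01 to 7.02 in arrays of 4 weeks. Its M+V minus control difference was −0.06 over all arrays, −0.29 within the arrays of low spike-in signal and 0.72 within those of high signal (2 M+V and 1 control). The brighter probe differed by −0.04 within the low and 0.01 within the high arrays.

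Meg3 and Mirg moved together across arrays, Rian less closely, and their low values in M+V cochleae came mostly from 2 mice. All 17 probes had a lower mean in M+V than in control arrays, with differences of −0.78 to −0.02 and a median of −0.50. Of these, 5 were past 1.5-fold (1 of them below the level for testing), beside the 1.87% given above, and in 0 of 17 did the groups not overlap. M+V 1 and M+V 2 had a mean deviation of −0.74 and −0.81 from the mean of all arrays over the 17 probes and lay below that mean in 17 of 17 probes each. M+V 3, 4, 5 and 6 deviated by 0.59, 0.07, 0.14 and −0.08, within the −0.13 to 0.71 of the control arrays, and arrays of 4 weeks by −0.41 to 0.12. The lowest of all 16 arrays was M+V 1 or M+V 2 for 12 of the 17 probes. Some Meg3 probes share a target sequence of the array design (2 targets have 2 probes each and 1 has 3). The 17 probes are therefore not independent readings.

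The Meg3 probe with the largest difference shows the pattern. Probe 1428764_at had a log2 signal of 8.87 and 8.65 in M+V 1 and 2 and 10.77, 10.08, 9.96 and 9.78 in M+V 3 to 6, against 10.42, 10.73, 10.61, 10.03 and 10.51 in control arrays and 9.94, 10.08, 10.14, 9.77 and 10.26 in arrays of 4 weeks. Only M+V 1 and 2 fell outside the span of the arrays of 4 weeks on the low side. The brightest Meg3 probe, 1439380_x_at, had 11.10 and 10.86 in M+V 1 and 2 and 12.15, 11.61, 11.77 and 11.47 in M+V 3 to 6, against 11.71, 12.05, 12.29, 11.42 and 11.67 in control arrays and 11.31, 11.43, 11.64, 11.09 and 11.82 in arrays of 4 weeks. Its M+V minus control difference was −0.33, and the suffix _x_at marks probes of which some match other transcripts too.

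Rian, which hosts small nucleolar RNAs, and Mirg, which hosts the microRNA cluster, followed. Rian 1427580_a_at had 6.41 and 6.77 in M+V 1 and 2 and 7.17, 7.10, 7.31 and 6.85 in M+V 3 to 6, against 7.84, 7.96, 7.84, 7.22 and 6.99 in control arrays and 6.96, 7.02, 6.35, 6.72 and 7.44 in arrays of 4 weeks. Here the M+V arrays 3 to 6 were on the low side too, and the difference from control was −0.63. Rian 1428055_at (−0.71, not tested), 1440001_at (−0.50) and 1452899_at (−0.02) completed the gene. Mirg 1457030_at, not tested, had 6.45 and 6.39 in M+V 1 and 2 and 7.64, 7.17, 7.35 and 7.24 in M+V 3 to 6, against 6.89, 7.59, 8.02, 7.42 and 7.45 in control arrays and 6.90, 6.87, 7.20, 6.47 and 7.07 in arrays of 4 weeks. The differences from control of the 2 Mirg probes were −0.43 and −0.22.

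**Figure D3:**
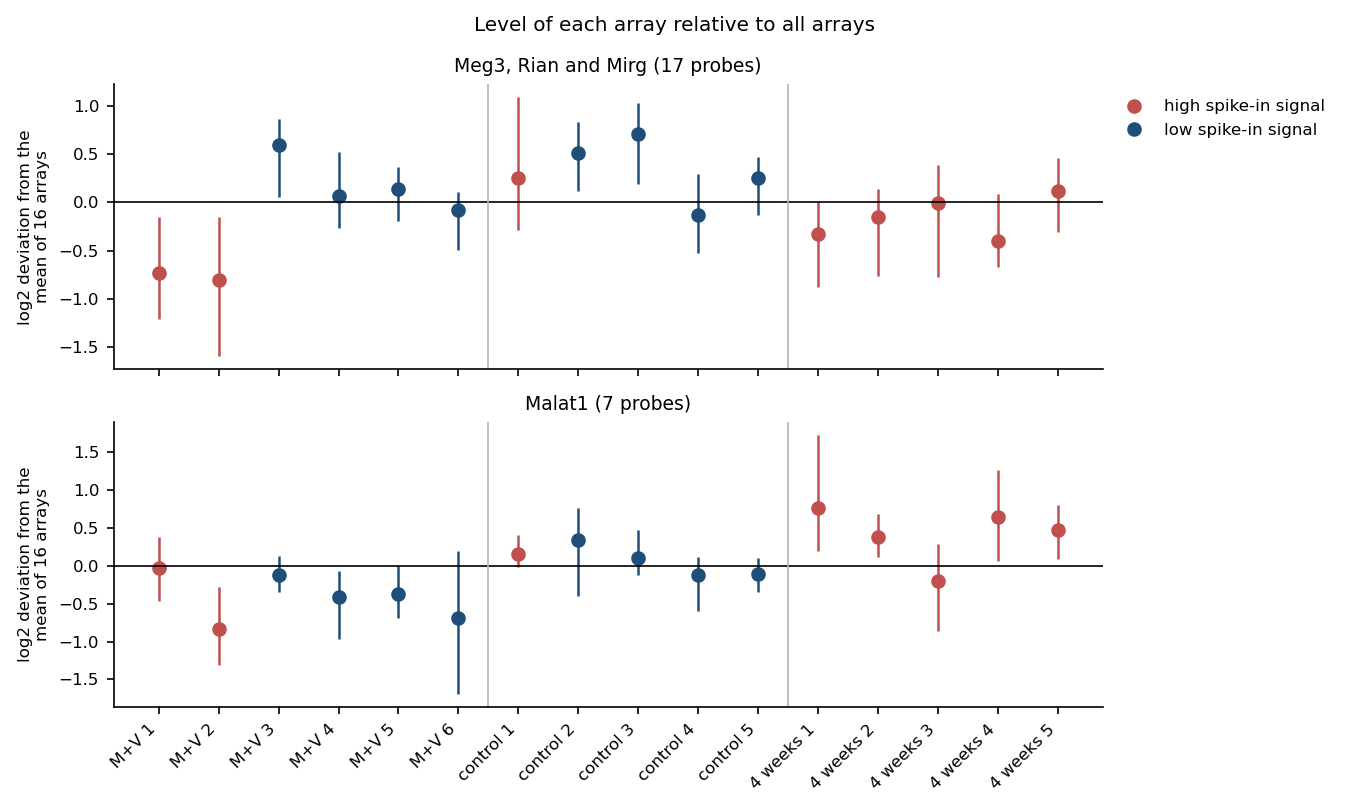
Mean deviation of each array's log2 signal from the mean of 16 arrays (points) with the lowest and highest probe (lines), for the 17 probes of Meg3, Rian and Mirg above and the 7 of Malat1 below. Red marks arrays with a high and blue those with a low bioB spike-in signal. M+V 1 and 2 stand lowest in the upper panel at −0.74 and −0.81, and in the lower panel M+V 2 and 6 stand lowest at −0.83 and −0.68.

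M+V 1 and 2 are the M+V arrays with a high spike-in signal and 2 of the 3 arrays with the lowest glial marker level, and the part of either in the low values was not tested. Within the arrays of low spike-in signal (4 M+V and 4 control), the M+V minus control differences of the 17 probes shrank to a median of −0.14 (range −0.39 to 0.10), with 16 of 17 still below 0. Within the arrays of high signal (2 M+V and 1 control), the median was −0.94, with a range of −2.01 to −0.23. With the glial marker level as a covariate the median was −0.23 and 16 of 17 stayed below 0. Summed neuron markers (7 tested of 10) were 23240 and 17510 in M+V 1 and 2 and between 17510 and 45650 over all M+V arrays, against 31390 to 46770 in control arrays and 28960 to 50680 in arrays of 4 weeks. All 7 neuron genes had a lower mean in M+V than in control arrays (median −0.46), and deviations of their mean level from the group means had r = 0.82 (rho = 0.78) with those of Meg3 1439380_x_at over 16 arrays, and r = 0.22 with those of Malat1 1418189_s_at. For the 2 tested Schwann cell markers, Pmp22 and Egr2, r with Meg3 was 0.84. The tie was not particular to nerve. Over the other gene lists r with that probe ran from −0.22 (paraspeckle protein genes) to 0.72 (imprinted genes outside the domain). It was 0.61 for cartilage and bone, 0.39 for oligodendrocyte and 0.34 for astrocyte genes.

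**Figure D4:**
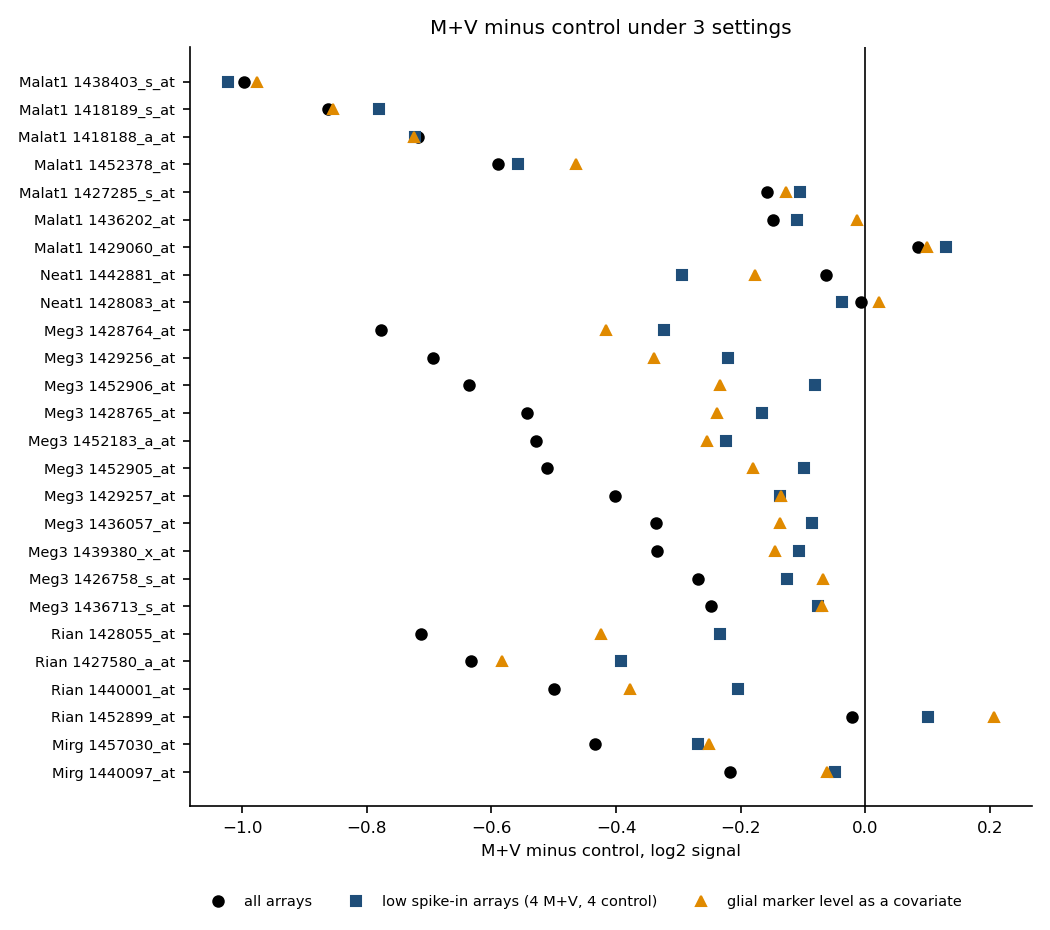
M+V minus control difference in log2 signal for each of the 26 probes over all arrays (circles), within the 4 M+V and 4 control arrays of low spike-in signal (squares), and with the mean level of 11 oligodendrocyte and astrocyte genes as a covariate (triangles). Within the low arrays the 4 Malat1 probes that were picked as lowest lie at −1.02 to −0.56, and the 17 probes of Meg3, Rian and Mirg at −0.39 to 0.10.

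Against cochleae of 4 weeks, the imprinted RNAs lay around 0 in M+V arrays and above 0 in control arrays over all arrays, and 0 of their tested probes passed the test in either comparison. In M+V arrays 8 of 17 probes were below 0 and 9 above, with a median of 0.04. Of the 15 tested probes of Meg3, Rian and Neat1, limma called 0, beside 3.2% of all tested probes called lower and 2.08% called higher at an adjusted p under 0.05. At an unadjusted p under 0.05 there was 1, Rian 1452899_at (0.42 ± 0.20, adjusted p = 0.223), beside 22.2% of all probes, and the methods' t-test called 0. These results turn on the arrays compared: within arrays of high spike-in signal (2 M+V and 5 of 4 weeks), the Meg3 median was −0.68, and limma called 4 Meg3 probes lower (1428764_at, 1429256_at, 1429257_at and 1452906_at, by −1.28, −0.98, −0.65 and −1.30, with adjusted p of 0.00733, 0.0264, 0.0492 and 0.0298). In that setting limma called 689 of all 21391 tested probes lower and 350 higher. The 4 Meg3 calls rest on M+V 1 and 2 alone. With the spike-in set as a block 16 of the 17 probes of Meg3, Rian and Mirg were below 0 (median −0.42), and with the glial marker level as a covariate 17 of 17 were above 0 (median 0.26), so their direction against 4 weeks depends on the setting.

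In control arrays all 17 probes of Meg3, Rian and Mirg had a higher mean than in arrays of 4 weeks, by 0.22 to 0.67 with a median of 0.45, and 3 were past 1.5-fold (1.24% of all tested probes were higher past that fold). Of the 15 tested probes of Meg3, Rian and Neat1 limma called 0, beside 1.01% of all probes called lower and 0.369% called higher. At an unadjusted p under 0.05 there were 4 of 15, beside 13.8% of all probes: Meg3 1436057_at and 1452183_a_at, and Rian 1427580_a_at and 1452899_at. The methods' t-test called 0 and had 6 of 15 at an unadjusted p under 0.05, beside 3492 of all 21391 tested probes. Rian 1427580_a_at had the largest difference of the domain, 0.67 ± 0.22 (adjusted p = 0.176). Meg3 1452183_a_at had 10.49, 11.18, 11.52, 10.50 and 10.79 in control arrays, against 10.01, 10.28, 10.57, 9.92 and 10.41 in arrays of 4 weeks, so that 3 of 5 control arrays lay above the highest of 4 weeks. All arrays of 4 weeks but only control 1 had a high spike-in signal. With the spike-in set as a block, the Meg3 median became −0.10 and the Mirg median −0.012, while the 4 Rian probes stayed between 0.20 and 0.51. Within the arrays of high signal the median of the 17 probes was 0.32.

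Likeness was read within groups, where the deviations hold nothing of the contrast that chose the genes. The 4 lower Malat1 probes, a set cut by that contrast, followed each other with r of 0.82 to 0.94 (median 0.86 over 6 pairs, rho 0.78). Their median r with the other 3 Malat1 probes was 0.23, but 1 of those 3, 1427285_s_at, had r of 0.55 to 0.65 with them. Among the other 3 the median was −0.03. The 11 Meg3 probes had a median r of 0.87 over 55 pairs (0.63 to 0.97). Meg3 with Mirg had 0.81, Meg3 with Rian 0.61 (0.25 to 0.85) and Rian with Mirg 0.55. Malat1 and the domain had a median r of 0.11 over 119 pairs, and the 2 Neat1 probes had r = 0.0048. All r are over the same 16 arrays, whose composition and spike-in signal the probes share, and are given as a description. The bioB signal had r of −0.37 to −0.76 with the 11 Meg3 probes and −0.20 to 0.27 with the 7 Malat1 probes.

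**Figure D5:**
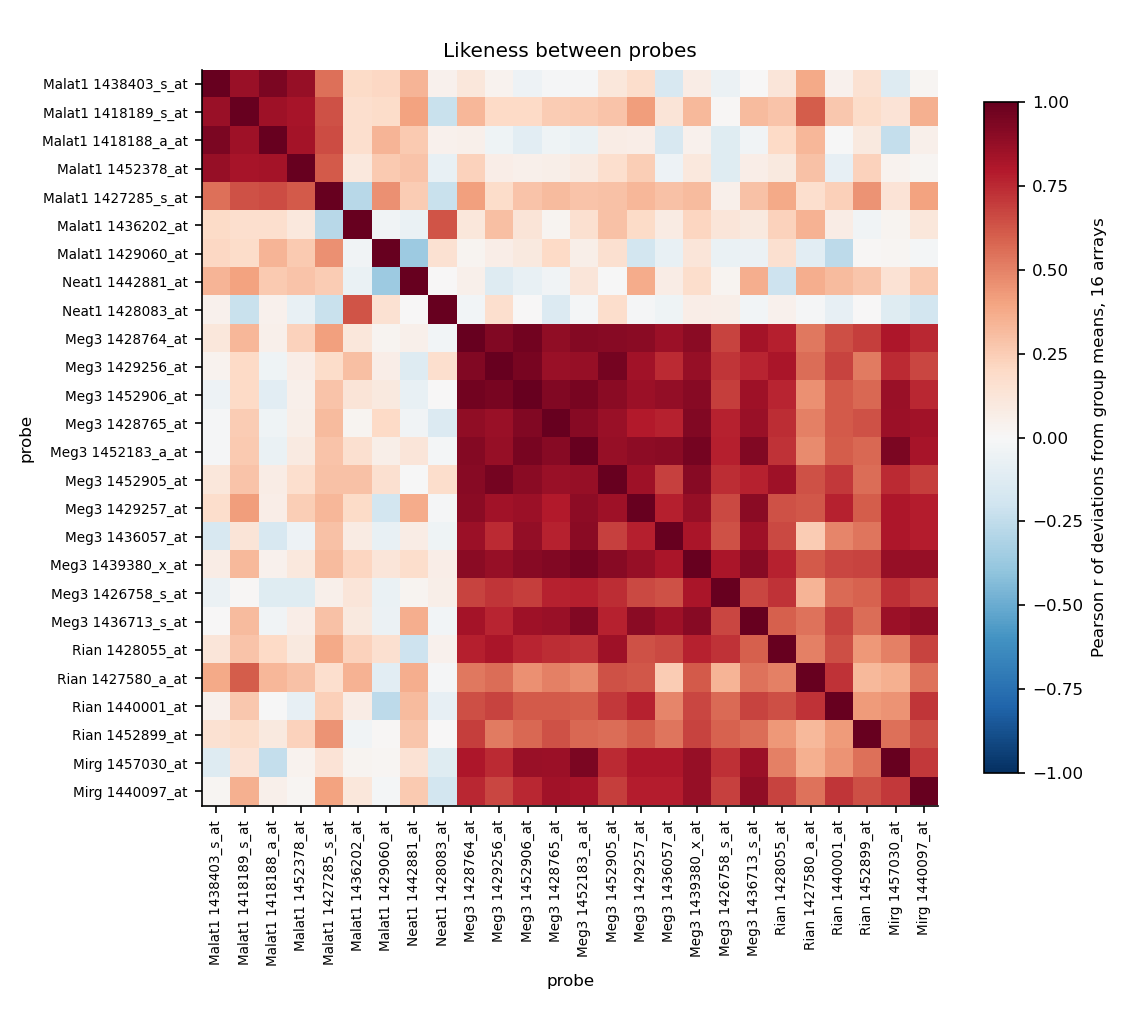
Pearson r between the 26 probes, computed on deviations from group means over 16 arrays, on a scale of −1 (blue) to 1 (red), both axes listing the probes by gene. A red block joins Meg3, Rian and Mirg, and a smaller block holds the 4 Malat1 probes that were lower with M+V (r 0.82 to 0.94). Malat1 1427285_s_at had r of 0.55 to 0.65 with those 4.

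Among 18830 tested single-gene probes, the 5 genes most like the brightest Malat1 probe, 1418189_s_at, were Ino80d (r = 0.94), Ddx6 (0.92), Srrm2 (0.90), Rbm5 (0.89) and Tra2b (0.89). Their r was 0.75 to 0.87 when the 2 arrays in which the Malat1 probe lay farthest from its group mean were left out. Ino80d belongs to a chromatin remodelling complex, Ddx6 is an RNA helicase of processing bodies, Srrm2 a scaffold of nuclear speckles, and Rbm5 and Tra2b are splicing regulators. Of these, Tra2b 1441466_at had a mean of 7.73 in M+V arrays, 8.61 in control arrays and 8.29 in arrays of 4 weeks. Ddx6 1424598_at had 9.97, 10.64 and 10.29 in the same order. Their M+V minus control differences, −0.88 and −0.67, were the largest of the 5 genes. Those of Rbm5, Ino80d and Srrm2 were −0.60, −0.48 and −0.34. The 5 genes most like the brightest Meg3 probe, 1439380_x_at, were Dst (0.96), Myo5a (0.94), Prune2 (0.93), Dync1i1 (0.92) and Prepl (0.92), with r of 0.85 to 0.94 without the 2 farthest arrays. Dst encodes a cytoskeletal linker, Myo5a an actin motor and Dync1i1 an intermediate chain of dynein.

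The proteins of the bodies that Malat1 and Neat1 belong to were measured as well, with 1 probe per gene. Of 16 nuclear speckle genes 15 were tested, with a median of −0.03 in M+V minus control, −0.14 in M+V minus 4 weeks and −0.09 in control minus 4 weeks, and of 14 paraspeckle genes 13 were tested, with medians of −0.02, −0.01 and 0.01. Limma called 0 of either list in both comparisons with 4 weeks. Of 11457 genes it called 2.41% lower and 2.52% higher for M+V, and 1.05% and 0.402% for control. Within groups, the mean level of the 15 speckle genes had r = 0.15 (rho = 0.24) with Malat1 1418189_s_at. For the 13 paraspeckle genes r was −0.24 (rho = −0.04). Srrm2, named above as like Malat1, is in the speckle list by another probe. Of 25 other long noncoding RNAs 19 were tested, with medians of −0.08, −0.05 and −0.02 in the same order of comparisons. Within groups, the mean level of these 19 had r = 0.50 (rho = 0.36) with Malat1 1418189_s_at. That was the highest r with this probe among the gene lists with tested genes. With the brightest Meg3 probe, r for the 19 was 0.60 (rho = 0.53). The 1 called was Dleu2, the host of miR-15a and miR-16, lower in control than in arrays of 4 weeks. Its means were 9.73 and 10.19 (difference −0.46, adjusted p = 0.0345 by limma).

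Imprinted genes outside the domain gave 12 tested of 20, with a median of −0.10 in M+V minus control, −0.24 in M+V minus 4 weeks and −0.13 in control minus 4 weeks. Limma called 2 of them in M+V against 4 weeks, both lower (beside 2.41% of all genes) and both growth regulators: Igf2, the growth factor gene beside H19, with means of 10.65 in M+V arrays, 10.71 in control arrays and 11.47 in arrays of 4 weeks (difference −0.82, adjusted p = 0.032), and Grb10, an adaptor that dampens growth factor receptors (10.02, 10.13 and 10.45, difference −0.43, adjusted p = 0.0112). In control against 4 weeks limma called 0 of them, and Igf2 differed by −0.76 (adjusted p = 0.11). Of the 7 cartilage and bone genes 5 were tested, and 3 were called lower in each older group: Col2a1, Col1a1 and Ibsp, but not Acan (adjusted p = 0.172 for M+V and 0.339 for control) or Sp7 (0.103 and 0.116). Col2a1, a cartilage collagen, was at 9.45 in M+V arrays, 9.70 in control arrays and 12.01 in arrays of 4 weeks (adjusted p = 0.00178 for M+V and 0.0084 for control by limma). Of the 4 coding genes of the Dlk1-Dio3 domain only Dlk1 had probes that name it alone in the annotation, and none of them reached the level for testing.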

How the data were processed

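RNA of 16 left cochleae was hybridized to the Affymetrix mouse genome GeneChip. Signals were extracted with GCOS and MAS5 and then quantile-normalized by the authors, who deposited log2 signals, with versions not given in the sources used here. The deposited log2 signals had a median of 6.898 in every array, and sorted values were identical across arrays. Depth does not apply to arrays, whose number limits the precision. Probes with several symbols (932) or none (9211) were named by no gene.

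Signals under 1 (0.869% of values) were set to 1. The study's present calls were not used here. In their place, a probe was tested if all arrays of at least 1 group had it at or above the median signal (21391 of 45101, with 64 control probes left out). One mean per group was fitted over all 16 arrays with limma 3.58.1 in R 4.3.3, two-sided, with Benjamini-Hochberg adjustment over all tested probes and a threshold of 0.05. The methods' t-test was an alternative. On simulated data the procedure was tested before use. Replicates are separate mice. The members and gene lists were chosen with earlier results of these data known. All member probes are named, with the 5 genes most like Malat1 and Meg3, at most 4 genes past the test per list, and Igf2 and Dlk1. The glial marker level averages the tested oligodendrocyte and astrocyte genes. Marker lists also covered hair cells, the stria vascularis, B cells and muscle: limma called 0 of the 2, 5 and 3 tested genes of the first 3 in either comparison with 4 weeks, and 0 muscle genes were tested. In M+V against 4 weeks limma called 3 glial genes lower, beside 2.41% of all genes. They were Ugt8a of 5 oligodendrocyte genes (−1.14, adjusted p = 0.0158), Gja1 of 6 astrocyte genes (−0.80, 0.0029) and Pmp22 of 2 Schwann cell genes (−1.08, 0.0273). In control against 4 weeks it called 0 of these 3 lists. Whether replicate numbers pair the mice could not be settled from the arrays. Deviations of same-numbered arrays had a median r of 0.013 over 15 pairs, and 6 were over 0.1. For other-numbered arrays the median r was −0.019 over 70 pairs, and 18 were over 0.1.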

Additional observations from a re-analysis of the deposited data

Results flagged for a closer look

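In 2 of 78 groups of values (26 probes in 3 groups) a single array stood far from the rest of its group. At 1 in 20 about 3.9 would be expected if the 78 groups were independent. They are not, since the probes share arrays and some share target sequences, so 2 against 3.9 does not measure chance. Malat1 1418188_a_at was at 12.30 in 4 weeks 3, against 13.29 to 13.69 in the other arrays of 4 weeks, a gap of 0.715 of the group's range. Meg3 1429256_at was at 9.55 in control 4, against 10.18 to 10.43 in the other control arrays, a gap of 0.714 of the range.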

How the results depend on the processing

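The 30 alternatives to the settings used covered the normalization, the floor, the filter, array weights, covariates, the spike-in sets, the replicate block, the methods' t-test and each mouse left out. The median Malat1 difference between M+V and control (−0.59) lay between −0.68 and −0.47 with 1 mouse left out and was −0.56 with the replicate block. These values come from the contrast that chose Malat1, so they describe the choice and give it no support. The median of the other members (−0.43) lay between −0.58 and −0.30 with 1 mouse left out. It was −0.47 with the block and fell to −0.14 within arrays of low spike-in signal. In the block same-numbered mice were treated as pairs. It left 0 of the 15 tested probes other than Malat1 called in either comparison with 4 weeks, as did each mouse left out (0 to 0). With array weights, or with only the 2 compared groups fitted, none of the 15 was called in control against 4 weeks either. Malat1 is left out of these counts, since the M+V and control arrays chose it. In M+V against 4 weeks, 4 of those 15 probes, all of Meg3, were called lower within arrays of high spike-in signal. In that setting 689 of all 21391 tested probes were called lower and 350 higher. The Mirg median in control minus 4 weeks (0.51) reversed to −0.012 with the spike-in set as a block. The cause was not tested for any of these. Arrays of low spike-in signal hold none of 4 weeks, so that setting gave no value for those comparisons. The SE of the Meg3 differences in control against 4 weeks was 0.22 to 0.37.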
